A study of Mus musculus with 4 samples.

Results

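T8 is a leukemia cell line of B cell precursors, and 10 genes best known from the T lineage were followed in it: *Trac*, *Trbc1*, *Trbc2*, *Cd3e*, *Cd3g*, *Zap70*, *Lck*, *Tcf7*, *Gata3* and *Notch1*. The 10 were given as a list, out of 55359 gene identifiers in the table of counts. They were chosen by lineage and by whether they were counted and how they differed between the groups in these same 4 libraries, so their values are a description and nothing is inferred from their calls. Of the 10, 5 were counted at clear levels (*Lck*, *Trac*, *Zap70*, *Notch1* and *Tcf7*), 3 never exceeded 2 counts in a library (*Cd3e*, *Cd3g* and *Gata3*), and 2 had no count in any library (*Trbc1* and *Trbc2*). After IRF4 was put back, *Notch1* was 2.48-fold higher, *Trac* and *Zap70* were 1.62-fold and 1.42-fold lower, and *Lck* and *Tcf7* did not pass the test.

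T8 derives from a leukemia that arose in an *Irf4*-/- mouse and was first grown on irradiated ST2 stromal cells. All libraries therefore share the *Irf4*-/- genotype and come from 1 tumor. T8 cells were transduced with a retrovirus encoding GFP alone (EV-RV, 2 libraries) or GFP and IRF4 (IRF4-RV, 2 libraries). Bulk RNAseq was performed a day later, per the study on cells that were still viable. The study also reports that cells given IRF4 were gradually lost over time, with apoptosis. The labels name T8 in the titles and the tissue field but T11 in the protocol text, and the libraries were used as T8. They do not say whether the duplicates came from separate cultures, so the spread between them may be technical.

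A T cell recognizes antigen with a receptor of an α and a β chain (or a γ and a δ chain), whose variable parts are joined from gene segments and whose constant parts are encoded by *Trac* and by *Trbc1* or *Trbc2*. The receptor has no signaling tail of its own and relies on the CD3 chains, which the kinase LCK phosphorylates so that the kinase ZAP70 can dock. Upstream in development, the receptor NOTCH1 in thymic progenitors turns on TCF7 and GATA3, the factors that start the T cell program, while B cell development in the bone marrow proceeds where Notch signaling is low.

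The libraries held between 31230223 and 37817752 counts. Levels are given as CPM, read counts scaled to 1e+06 of the library, after correction with edgeR's TMM factors. A level of 3 counts, taken as the lowest that can be shown, was 0.0824 to 0.0952 CPM, a limit that covers counting error only. *Irf4* had 8070 and 7600 counts in the EV-RV duplicates, although the cells are *Irf4*-/- and that vector encodes GFP alone. The source of these reads was not tested. With IRF4-RV there were 95578 and 90693 counts, and for these libraries counts per gene do not separate vector from locus. Of 14637 genes tested with edgeR's quasi-likelihood test at an FDR of 0.1, 29.7% were called (16.0% with a rise after IRF4-RV, 13.7% with a fall), and the duplicates of the groups did not overlap for 61.3%. The B lineage identity of the label was borne by *Cd79a* (29068 to 33036 counts in a library), while the recombinase genes *Rag1* and *Rag2* had at most 1 count in a library. *Cd79a* did not stand for all B lineage genes. Of 10 B progenitor markers, 8 were tested, with 1 called higher and 2 called lower after IRF4-RV. In bulk samples, fewer cells of a type and less RNA per cell cannot be told apart.

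**Figure D1:**
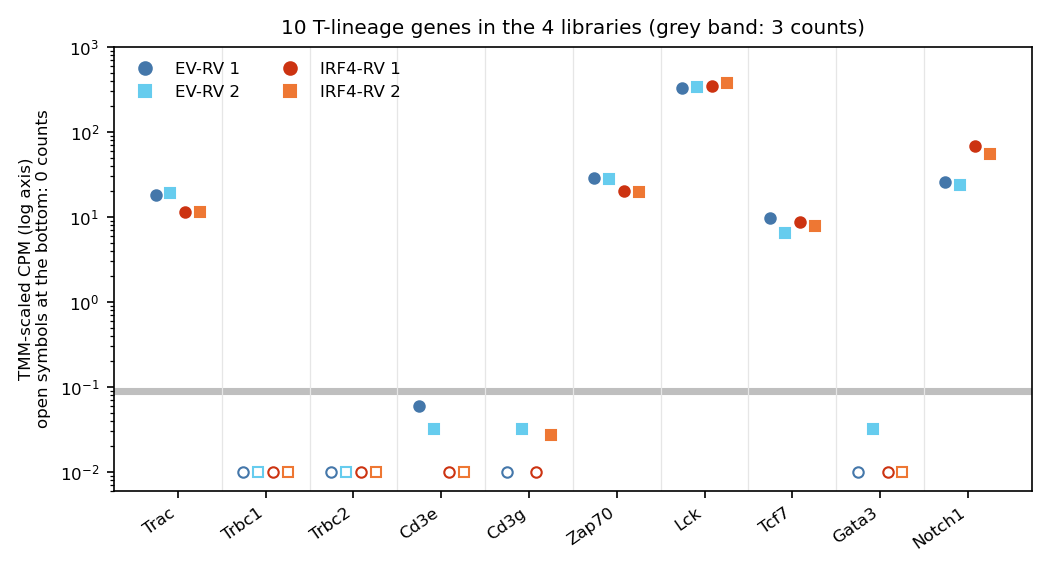
TMM-scaled CPM (log axis) of the 10 T-lineage genes in the 2 EV-RV and 2 IRF4-RV libraries. Each point is a library, open symbols at the bottom stand for 0 counts, and the grey band marks the level of 3 counts. *Lck*, *Trac*, *Zap70*, *Tcf7* and *Notch1* lie above the band in all 4 libraries, and the other 5 genes lie below it.

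*Trac*, the constant region of the receptor's α chain, occupies positions 54220521 to 54224206 of chromosome 14 in GRCm38 (plus strand). The EV-RV duplicates held 613 and 603 *Trac* counts, against 391 and 420 with IRF4-RV. Both IRF4-RV libraries were below both EV-RV libraries although they were the deeper ones. The mean was 18.7 ± 0.532 CPM with EV-RV, against 11.5 ± 0.00620 CPM with IRF4-RV (SD, n = 2 each), or a log2 fold change of -0.70 (standard error, SE, 0.101). The very small SD with IRF4-RV rests on 2 libraries.

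The constant regions of the β chain were not counted at all. *Trbc1* (chromosome 6, plus strand, 41538218 to 41539881) and *Trbc2* (chromosome 6, plus strand, 41546730 to 41548352) had 0 counts in each of the 4 libraries, which allows a level of up to 0.0824 to 0.0952 CPM in a library. The pair of genes is nearly a copy of each other, and reads that fit both may be dropped in counting. Over the 375 bases of their first exons 1 base differed, an identity of 99.7%, and the longest identical run of their transcripts was 259 bases. Of all stretches of 50 bases, 40.5% of those of *Trbc1* and 44.0% of those of *Trbc2* also occur in the other gene, and the remainder are their own. The 120 bases around the differing base (capital) are shown in the direction of transcription, from GRCm38 at chr6:41538417-41538536 for *Trbc1* and chr6:41546929-41547048 for *Trbc2*, because this identity limits what a count of 0 says.
*Trbc1*: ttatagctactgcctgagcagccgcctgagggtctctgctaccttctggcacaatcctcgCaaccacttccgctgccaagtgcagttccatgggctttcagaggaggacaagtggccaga
*Trbc2*: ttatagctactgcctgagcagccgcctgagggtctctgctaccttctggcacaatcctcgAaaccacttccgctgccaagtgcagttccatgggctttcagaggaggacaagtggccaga

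The CD3 chains were at the edge of detection. *Cd3e*, the ε chain (chromosome 9, minus strand, 44998740 to 45009627), had 2 and 1 counts in the EV-RV duplicates, against 0 and 0 with IRF4-RV. *Cd3g*, the γ chain (chromosome 9, minus strand, 44969572 to 44980431), had 0 and 1 counts in the EV-RV duplicates, against 0 and 1 with IRF4-RV. No fold change is given for either, since all values are at or below 3 counts.

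The 2 kinases were both counted, at very different levels. *Zap70* (chromosome 1, plus strand, 36761798 to 36782818) had 950 and 877 counts in the EV-RV duplicates, against 688 and 708 with IRF4-RV. The groups did not overlap, and both IRF4-RV libraries were lower. Its level fell from 28.1 ± 0.465 CPM to 19.9 ± 0.614 CPM (SD, n = 2 each), or a log2 fold change of -0.50 (SE 0.0918). *Lck* (chromosome 4, minus strand, 129548344 to 129573641) had 10917 and 10659 counts in the EV-RV duplicates, against 11929 and 13674 with IRF4-RV. Its level was 332.6 ± 7.68 CPM with EV-RV and 363.9 ± 16.5 CPM with IRF4-RV (SD, n = 2 each), or a log2 fold change of 0.13 (SE 0.0730). The *Lck* levels of the groups did not overlap either, but the change did not pass the test.

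The genes of the T cell program upstream of the receptor split. *Notch1* (chromosome 2, minus strand, 26457903 to 26516663) had 870 and 742 counts in the EV-RV duplicates, against 2318 and 1985 with IRF4-RV. Each IRF4-RV library held more than both EV-RV libraries together. The level of *Notch1* was 24.8 ± 1.80 CPM with EV-RV and 61.5 ± 9.84 CPM with IRF4-RV (SD, n = 2 each), or a log2 fold change of 1.31 (SE 0.126). *Tcf7*, which encodes the transcription factor TCF1 (chromosome 11, minus strand, 52252371 to 52283014), had 323 and 206 counts in the EV-RV duplicates, against 295 and 283 with IRF4-RV. The EV-RV libraries enclosed the IRF4-RV libraries, with levels of 8.11 ± 2.23 CPM and 8.24 ± 0.663 CPM (SD, n = 2 each) and a log2 fold change of 0.02 (SE 0.193). The sign of the *Tcf7* value changed with other settings. *Gata3* (chromosome 2, minus strand, 9857078 to 9890034) had 1 count, in EV-RV replicate 2, and 0 in the other libraries.

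Only 5 of the 10 genes passed the filter on low counts, with 1 called higher, 2 called lower and 2 not called, beside the 29.7% called of all genes tested, and the groups of 4 of the 5 did not overlap, beside 61.3%. The contrast belongs to the choice of the genes, so nothing is read from these counts. Parts of the exons of *Notch1* are covered by genes on the opposite strand, 1068 bases by *0610009E02Rik* and 414 bases by *Gm13568* out of 14232, and whether counting used the strand is not given in the sources used here. *0610009E02Rik* had 7 to 14 counts in a library, against 742 to 2318 for *Notch1*. How reads from the shared bases were assigned is not known, so these counts do not measure reads of the opposite strand there.

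Levels of different genes are comparable only per length, here as CPM per kb of merged exons. In the EV-RV libraries *Lck* stood at 113.6 ± 2.62 CPM per kb (SD, n = 2), at percentile 95.7 of all genes tested, and thus among the more abundant transcripts of these cells. *Trac* followed at 20.1 ± 0.569 CPM per kb (percentile 79.9) and *Zap70* at 9.41 ± 0.155 CPM per kb (percentile 65.9). *Tcf7* had 3.09 ± 0.848 CPM per kb (percentile 42.1) and *Notch1* had 1.74 ± 0.126 CPM per kb (percentile 32.2). With IRF4-RV the levels were 124.2 ± 5.64 CPM per kb for *Lck*, 12.3 ± 0.00663 for *Trac*, 6.64 ± 0.205 for *Zap70*, 4.32 ± 0.692 for *Notch1* and 3.14 ± 0.252 for *Tcf7* (CPM per kb, SD, n = 2 each). *Notch1* thus stood below *Tcf7* with EV-RV and above it with IRF4-RV, whereas the other 3 kept their places. Whether the EV-RV duplicates of the last pair overlap depends on the length used. Per kb of the longest transcript, *Tcf7* had 3.92 and 2.64 CPM and *Notch1* had 2.75 and 2.48 CPM in EV-RV replicates 1 and 2, so that *Tcf7* was higher in each library but the ranges overlapped.

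Promoter windows of 300 bases (250 before to 50 after a RefSeq start, GRCm38.p6) were at hand for 7 of the 10 genes, 11 windows in all, and none was read for *Trac*, *Trbc1* and *Trbc2*. They were searched on both strands for 6 motifs. The composite element of ETS and IRF factors was taken as GGAA followed after 2 bases by GAAA. The interferon response element, which IRF factors bind, was taken as GAAA followed after 2 bases by GAAA. These paired motifs can overlap each other. The core bound by RBPJ, the DNA-binding partner of Notch, was TGGGAA. For TCF factors the letters were CTTTGAT. For GATA factors they were AGATAA. For RUNX factors they were TGTGGT. Windows of 3 genes are shown, since *Notch1* moved up, *Zap70* moved down and *Lck* was the most abundant. For *Zap70* only the window of the first start is shown. Capitals mark the motifs found. They lie at chr1:36761548-36761847 (plus strand) for the first start of *Zap70*, at chr4:129573592-129573891 and chr4:129558323-129558622 (minus strand) for the upstream and the inner start of *Lck*, which is known to have a distal and a proximal promoter, and at chr2:26503773-26504072 (minus strand) for *Notch1*.
*Zap70*: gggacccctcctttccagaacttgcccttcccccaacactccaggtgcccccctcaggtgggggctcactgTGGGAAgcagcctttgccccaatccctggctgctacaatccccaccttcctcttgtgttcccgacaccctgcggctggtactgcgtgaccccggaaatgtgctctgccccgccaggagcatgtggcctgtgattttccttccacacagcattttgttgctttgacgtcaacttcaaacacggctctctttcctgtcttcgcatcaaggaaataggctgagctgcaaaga
*Lck*, upstream start: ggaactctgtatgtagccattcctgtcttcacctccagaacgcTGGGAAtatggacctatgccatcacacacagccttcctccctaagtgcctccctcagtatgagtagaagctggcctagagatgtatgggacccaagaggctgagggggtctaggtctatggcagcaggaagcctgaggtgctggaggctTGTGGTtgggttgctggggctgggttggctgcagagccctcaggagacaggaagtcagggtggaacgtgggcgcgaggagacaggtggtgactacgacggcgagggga
*Lck*, inner start: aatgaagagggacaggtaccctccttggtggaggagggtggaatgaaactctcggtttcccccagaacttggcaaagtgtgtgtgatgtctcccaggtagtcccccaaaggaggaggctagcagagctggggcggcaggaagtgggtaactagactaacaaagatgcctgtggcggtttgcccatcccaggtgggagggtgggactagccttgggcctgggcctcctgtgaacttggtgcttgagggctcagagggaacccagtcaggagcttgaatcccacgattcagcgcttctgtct
*Notch1*: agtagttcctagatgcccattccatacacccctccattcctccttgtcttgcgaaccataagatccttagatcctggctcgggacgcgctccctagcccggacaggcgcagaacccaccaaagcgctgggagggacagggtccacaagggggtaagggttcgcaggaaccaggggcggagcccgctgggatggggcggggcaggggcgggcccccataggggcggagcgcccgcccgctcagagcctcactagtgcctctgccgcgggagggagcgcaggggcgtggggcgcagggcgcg

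The RBPJ core was found once in the *Zap70* window shown and once in the upstream *Lck* window, and 25.6% of all 32851 promoter windows hold it. The upstream *Lck* window also held the RUNX motif once, found in 16.8% of all windows. That motif occurred once in a *Zap70* window not shown, at chr1:36764265-36764564. The *Zap70* window at chr1:36778734-36779033, also not shown, held no motif. No capital appears in the *Notch1* window or in the inner *Lck* window. Of the 11 windows, 0 held the composite element and 0 the interferon response element, against 2.72% and 3.44% of all windows, which says only that these letters are not in these windows. The RBPJ core occurred in 4 of the 11 windows, the RUNX motif in 2, the GATA motif in 1 (*Cd3g*) and the TCF motif in 0, against 11.2% of all windows for GATA and 3.73% for TCF.

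The receptor loci were then read as a whole, to see what else was counted beside the constant regions. Of the receptor genes, the γ constant regions held the most counts. *Tcrg-C2*, a γ constant region, had 7742 and 8689 counts in the EV-RV duplicates, against 13903 and 15502 with IRF4-RV. It rose from 253.8 ± 30.8 to 418.2 ± 10.8 CPM (SD, n = 2 each, log2 fold change 0.72, SE 0.0942, edgeR adjusted p = 0.00144). *Tcrg-C1* had 1113 and 1320 counts in the EV-RV duplicates, against 2238 and 2548 with IRF4-RV, and it rose by a log2 fold change of 0.86 (SE 0.117, edgeR adjusted p = 0.00175). In both genes every IRF4-RV library lay above every EV-RV library, and the groups did not overlap in either direction for 61.3% of all genes tested. Outside the naming rule and chosen after its values were seen, *Tcrg-C3* had 196 and 292 counts against 918 and 1061 (log2 fold change 1.90, edgeR adjusted p = 0.000378). Of their stretches of 50 bases, *Tcrg-C1*, *Tcrg-C2* and *Tcrg-C3* share 34.2%, 25.4% and 39.5% with one another, so how their reads were split is uncertain.

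The γ and the α constant regions thus moved in opposite directions, and the variable segments were almost uncounted. The 4 γ constant regions together held 9064 and 10323 counts in the EV-RV duplicates, against 17107 and 19165 with IRF4-RV, while the 7 γ variable genes held 0 and 3 counts in the EV-RV duplicates, against 2 and 5 with IRF4-RV. The γ joining genes summed to 460 and 542 counts in the EV-RV duplicates, against 463 and 498 with IRF4-RV. The 134 variable genes of the joint α and δ locus summed to 70 and 66 counts in the EV-RV duplicates, against 56 and 54 with IRF4-RV, and 29 of them had any count. The 62 joining genes of that locus summed to 13 and 12 counts in the EV-RV duplicates, against 7 and 16 with IRF4-RV. At the β locus, 35 variable genes held 3 and 0 counts in the EV-RV duplicates, against 4 and 0 with IRF4-RV, and the 14 joining genes had none. *Trdc*, the δ constant region, had 1 count, in IRF4-RV replicate 2.

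**Figure D2:**
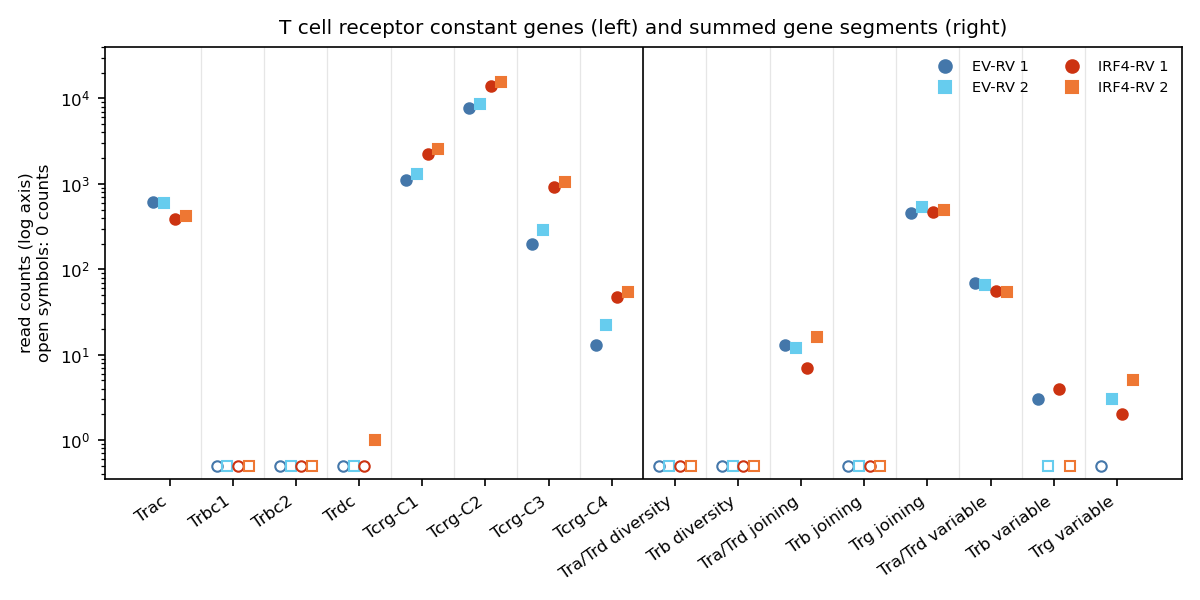
Read counts (log axis) of the T cell receptor constant genes (left) and of the summed diversity, joining and variable genes of each locus (right) in the 4 libraries. Open symbols stand for 0 counts. *Trac* and the γ constant genes hold 196 to 15502 counts except *Tcrg-C4*, which had 13 to 54, while the β locus is at 0 to 4 counts.

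Further T-lineage genes, a list of 59, were split between higher, lower and silent. Of the 59, 34 were tested, and 13 rose, 6 fell and 15 did not pass the test. The median log2 fold change of the tested genes was 0.07, beside 0.01 over all genes, and 55.9% were called, beside 29.7% of all genes. Many of these genes are also used by B progenitors or other blood cells. The list was made with earlier results of these data known, and the numbers are a description of it. Without IRF4-RV replicate 2, 13 rose and 3 fell, the calls of *Cd2*, *Ubash3a* and *Tox* being lost.

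The silent part of the list held several genes that define T cells. A group of 17 genes stayed at or below 3 counts everywhere, among them the coreceptors *Cd4* (3 counts, in EV-RV replicate 1), *Cd8a* and *Cd8b1* (0 in each library), *Thy1* (0 to 3 counts) and *Themis* (1 to 2 counts), a factor of thymocyte selection. Just above this limit, and named after their values were seen, were *Cd3d*, the δ chain of CD3 (2 and 3 counts with EV-RV, 5 and 3 with IRF4-RV), *Cd247*, the ζ chain (0 and 0, then 4 and 3) and *Bcl11b*, the factor that seals T cell commitment (4 and 3, then 0 and 1). The exons of *Cd247* overlap *Pou2f1* on the opposite strand over 56.4% of their length.

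Among 12 surface proteins, 4 were tested, 2 rose and 1 fell, beside 29.7% called of all genes tested. *Il2ra*, the α chain of the interleukin 2 receptor, which precursors of both B and T cells can carry, had 580 and 480 counts in the EV-RV duplicates, against 2100 and 1807 with IRF4-RV. It rose by 1.77 on the log2 scale (SE 0.132, edgeR adjusted p = 8.32e-05). *Cd28*, a costimulatory receptor, had 112 and 129 counts in the EV-RV duplicates, against 197 and 183 with IRF4-RV, and it rose by 0.54 on the log2 scale (edgeR adjusted p = 0.0730). *Cd2*, an adhesion receptor, had 804 and 785 counts in the EV-RV duplicates, against 677 and 709 with IRF4-RV, and it fell by 0.31 on the log2 scale (edgeR adjusted p = 0.0465). The *Cd2* call was lost with any 1 of the 4 libraries left out and the *Cd28* call without EV-RV replicate 1 or IRF4-RV replicate 1, with edgeR adjusted p of up to 0.202 and 0.285 over 11 alternatives. DESeq2 called neither, which left 1 surface protein higher and 0 lower.

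Among 21 genes of receptor signaling, 17 were tested, 3 rose and 3 fell, beside 29.7% called of all genes tested. Nothing is read from these counts. The adaptors that ZAP70 phosphorylates were among those that fell. *Lat*, the membrane scaffold, had 802 and 834 counts in the EV-RV duplicates, against 566 and 637 with IRF4-RV (log2 fold change -0.56, edgeR adjusted p = 0.00606). *Lcp2*, which encodes the adaptor SLP-76, had 112 and 98 counts in the EV-RV duplicates, against 35 and 39 with IRF4-RV (log2 fold change -1.62, SE 0.247, edgeR adjusted p = 0.00297). *Plcg1*, the phospholipase that binds them, had 64 and 46 counts in the EV-RV duplicates, against 111 and 153 with IRF4-RV (log2 fold change 1.14, SE 0.250, edgeR adjusted p = 0.0143). *Rhoh*, a GTPase without enzymatic activity that helps ZAP70 to reach the receptor, had 1509 and 1698 counts in the EV-RV duplicates, against 3348 and 3688 with IRF4-RV (log2 fold change 1.01, SE 0.0993, edgeR adjusted p = 0.000347). In each of the 4 genes the groups did not overlap, which also held for 61.3% of all genes tested.

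Among 18 transcription factors, 10 were tested, 5 rose and 2 fell, beside 29.7% called of all genes tested. *Zbtb7b*, which directs thymocytes to the CD4 lineage, had 673 and 577 counts in the EV-RV duplicates, against 1644 and 1490 with IRF4-RV (log2 fold change 1.22, SE 0.114, edgeR adjusted p = 0.000283). *Runx1*, a regulator of both lymphoid lineages, rose by 0.93 on the log2 scale, from 83.0 ± 1.74 to 157.8 ± 16.7 CPM (SD, n = 2 each, edgeR adjusted p = 0.000367). *Sox4*, a factor of early lymphocytes, rose by 0.86, from 97.1 ± 4.20 to 176.1 ± 14.6 CPM (SD, n = 2 each, edgeR adjusted p = 0.000400). Of the exon length of *Sox4*, 54.6% is covered by *Gm26735* on the opposite strand, a gene that was not counted. *Gfi1*, a repressor active in early T cells and in myeloid cells, had 903 and 791 counts in the EV-RV duplicates, against 470 and 425 with IRF4-RV (log2 fold change -1.03, SE 0.117, edgeR adjusted p = 0.000728).

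*Notch1* is a receptor, and 30 other genes of its pathway were read beside it. Of 26 tested, 6 rose, 6 fell and 14 did not pass the test, which is 46.2% called beside 29.7% of all genes, and their median log2 fold change was -0.01. Without IRF4-RV replicate 2, 6 rose and 5 fell. The other receptors, *Notch2*, *Notch3* and *Notch4*, did not pass the test with edgeR or DESeq2 with all 4 libraries and the filter on low counts, and 0 of them had an unadjusted p below 0.05. *Notch3* had 28 and 14 counts in the EV-RV duplicates, against 17 and 76 with IRF4-RV, so its level with IRF4-RV rests on 1 library. *Notch3* passed the test in edgeR with all genes of at least 1 count (log2 fold change 1.01, adjusted p = 0.0948) and without IRF4-RV replicate 1 (1.67, against -0.35 without replicate 2), and *Notch2* passed it without IRF4-RV replicate 2 (0.35).

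Of 5 ligands, 2 were tested, and *Dll1* rose and *Jag2* fell, beside 29.7% called of all genes tested. *Dll1* had 46 and 75 counts in the EV-RV duplicates, against 320 and 293 with IRF4-RV (log2 fold change 2.22, SE 0.249, edgeR adjusted p = 0.000675). Of the exon length of *Dll1*, 20.55% is covered by *A930024N18Rik* on the opposite strand, a gene that was not counted. *Jag2* had 532 and 462 counts in the EV-RV duplicates, against 308 and 306 with IRF4-RV (log2 fold change -0.81, SE 0.116, edgeR adjusted p = 0.00225). In both ligands the groups did not overlap, beside 61.3% of all genes tested.

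Of 9 genes that process the receptor or attach its sugars, 3 rose and 2 fell, beside 29.7% called of all genes tested. *Ncstn*, a subunit of the γ-secretase that releases the intracellular part of NOTCH1, rose by 0.39 on the log2 scale (edgeR adjusted p = 0.00849). The fringe glycosyltransferases, which tune which ligand the receptor answers to, moved down or did not pass. *Lfng* had 3646 and 3772 counts in the EV-RV duplicates, against 1658 and 1776 with IRF4-RV (log2 fold change -1.23, SE 0.0825, edgeR adjusted p = 4.90e-05). *Mfng* had 2245 and 2412 counts in the EV-RV duplicates, against 1355 and 1613 with IRF4-RV (log2 fold change -0.77, SE 0.0991, edgeR adjusted p = 0.00133).

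The Mastermind cofactors, which bind the NOTCH1 and RBPJ complex on DNA, went separate ways. *Maml2* had 22 and 14 counts in the EV-RV duplicates, against 112 and 100 with IRF4-RV (log2 fold change 2.44, SE 0.317, edgeR adjusted p = 0.00139). *Maml1* rose by 0.33 and *Maml3* fell by 0.54 on the log2 scale (edgeR adjusted p = 0.0909 and 0.0419), and DESeq2 called neither. The *Maml1* call was lost without EV-RV replicate 2 or IRF4-RV replicate 1, and the *Maml3* call without EV-RV replicate 1 (edgeR adjusted p of up to 0.337 and 0.202 over the alternatives). Of the target genes, 5 were tested, 2 fell and 0 rose, beside 29.7% called of all genes tested. None of the 5 had a rise with an unadjusted p below 0.05, and DESeq2 called 1 lower and 0 higher. *Nrarp*, a target that feeds back on the pathway, had 246 and 268 counts in the EV-RV duplicates, against 165 and 191 with IRF4-RV (log2 fold change -0.65, SE 0.148, edgeR adjusted p = 0.0172), although 79.4% of its exon length is covered by *Gm38287* on the opposite strand.

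**Figure D3:**
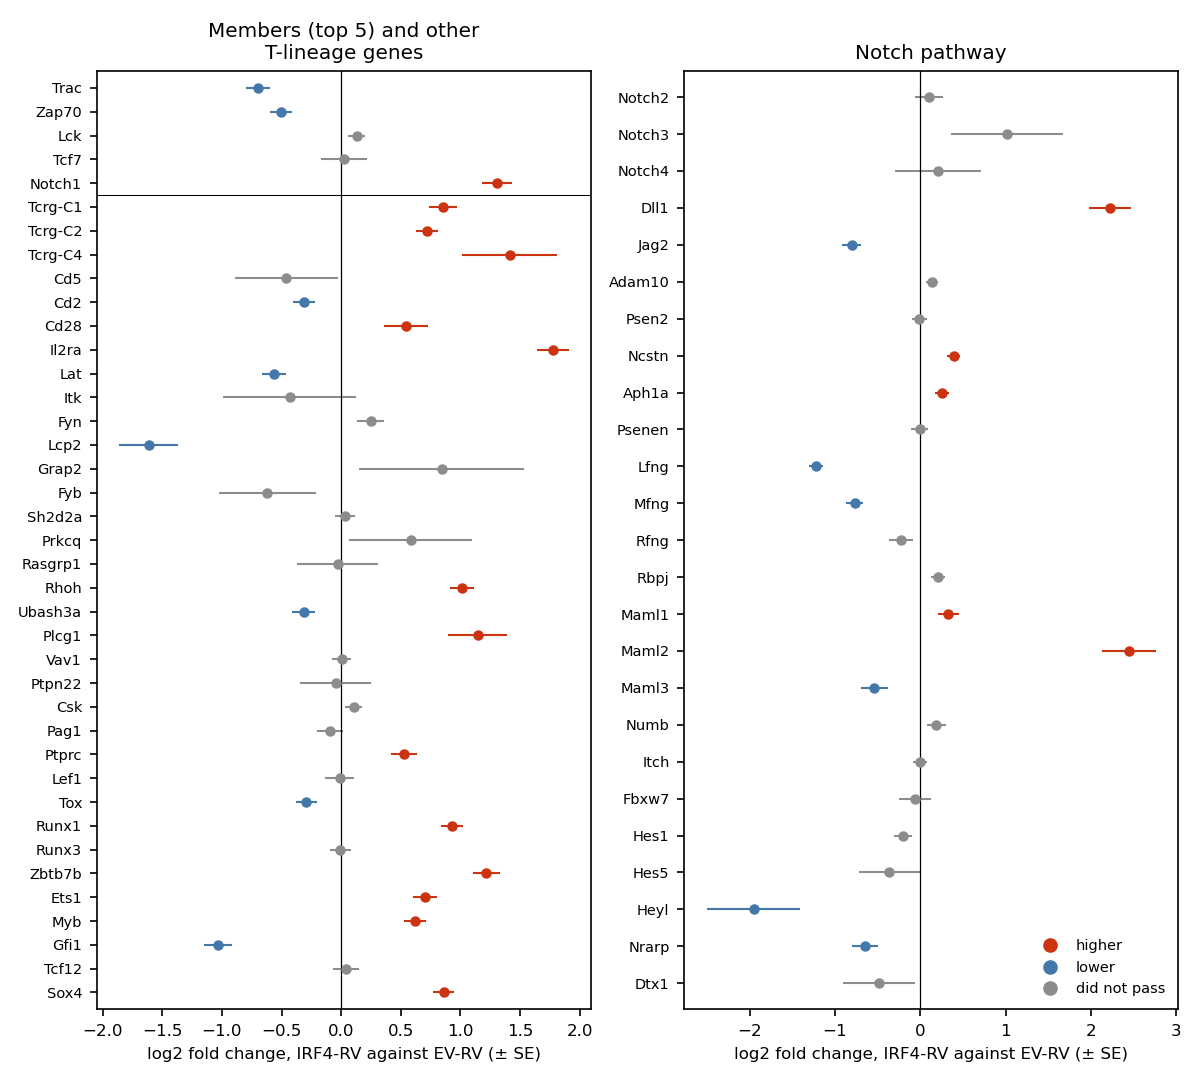
log2 fold changes (IRF4-RV against EV-RV, points with ± SE bars, edgeR) of the tested T-lineage genes on the left, with the 5 tested members above the line, and of tested Notch pathway genes on the right. Red and blue mark genes called higher and lower at an FDR of 0.1 and grey marks genes that did not pass. *Notch1* at 1.31 lies right of 0, *Trac* and *Zap70* lie left of it, and both lists hold genes on both sides.

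The neighbours of the 5 tested genes on the chromosome did not all move with them. Next to *Trac*, *Dad1* had a log2 fold change of -0.04 and did not pass the test, and the nearest tested gene on its other side, *Trav14-1*, lies 665963 bases away. Beside *Zap70*, *Actr1b* (log2 fold change -0.17) and *Tmem131* (0.22) did not pass. Beside *Notch1*, *Egfl7* had 266 and 278 counts in the EV-RV duplicates, against 172 and 185 with IRF4-RV, and it fell by 0.72 on the log2 scale (edgeR adjusted p = 0.00813), the opposite direction. Beside *Lck*, *Hdac1* rose by 0.25 (edgeR adjusted p = 0.0392) and *Fam167b*, with a log2 fold change of 0.00062, did not pass. Beside *Tcf7*, *Vdac1* fell by 0.22 (edgeR adjusted p = 0.0831) and *Skp1a* (-0.07) did not pass.

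Markers of other cells were counted in the same libraries. The 15 T cell defining markers summed to 23.7 and 24.3 CPM with EV-RV and 18.5 and 17.6 CPM with IRF4-RV, most of it *Trac* and *Cd28*, and 9 of the 15 had at most 3 counts in each library, *Cd8a*, *Cd8b1*, *Trbc1* and *Trbc2* being at 0. The 10 NK cell markers summed to between 1.89 and 2.44 CPM, with 3 at 0 in each library (*Ncr1*, *Klrk1* and *Gzmb*). The 11 myeloid markers summed to 40 and 45 counts in the EV-RV duplicates, against 100 and 100 with IRF4-RV. Of these *Ly6g* had 1 and 0, then 71 and 58 counts, while *Adgre1*, *S100a8* and *S100a9* were at 0. The 8 stromal markers summed to 47.5 and 89.4 CPM with EV-RV and 47.0 and 221.2 CPM with IRF4-RV. IRF4-RV replicate 2 thus stood apart, and EV-RV replicate 2 was above EV-RV replicate 1. Of the 8, 6 were tested and 0 were called, beside 29.7% called of all genes tested. *Col1a2* had 655 and 1108 counts in the EV-RV duplicates, against 590 and 3154 with IRF4-RV. For *Cxcl12* these were 210 and 408, against 191 and 1313, while *Dcn* and *Lum* had at most 2 counts. Without IRF4-RV replicate 2 the log2 fold changes were 1.47 for *Notch1*, -0.69 for *Trac*, -0.47 for *Zap70*, 0.09 for *Lck* and 0.11 for *Tcf7*. The part of these other cells in the differences was not tested. The 10 B progenitor markers summed to 118206 to 119509 counts with EV-RV and 90768 to 96916 with IRF4-RV.

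**Figure D4:**
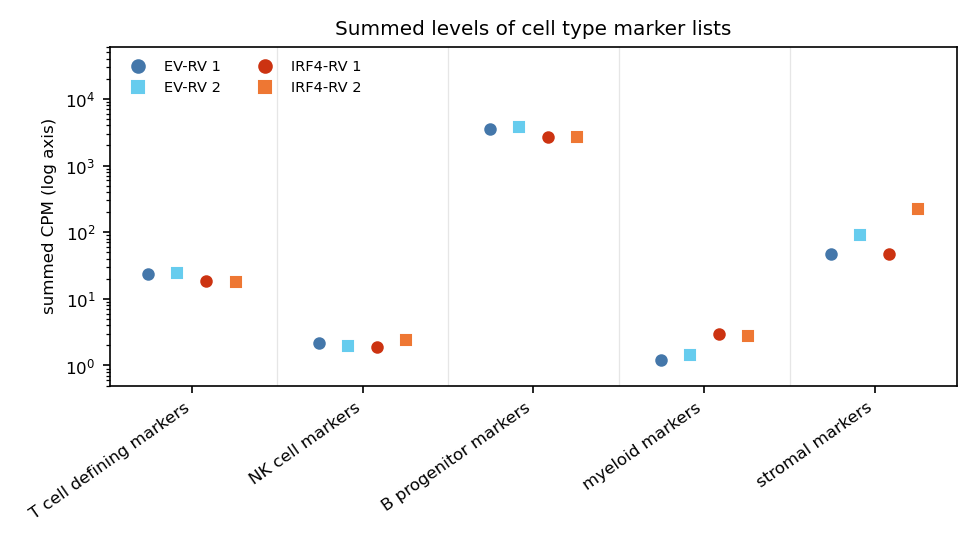
Summed CPM (log axis) of the marker lists of T cells, NK cells, B progenitors, myeloid cells and stromal cells in the 4 libraries, each point being a library. T cell markers lie between 17.6 and 24.3 CPM, and the stromal markers of IRF4-RV replicate 2 stand above those of the other libraries at 221.2 CPM.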

How the data were processed

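Bulk RNAseq libraries of T8 cells were used, 2 per group, grouped by the condition in the labels. Per the labels, the authors used STAR 2.4.0j on GRCm38 for alignment and featureCounts for counts per gene. The deposited values are these raw counts, without normalization. How featureCounts treated strand and multiply aligned reads is not given in the sources used here. Of 55359 identifiers, 52083 were matched to GENCODE M21 for symbols and positions, and the others held 0.203% to 0.486% of the counts of a library. Beyond sampling noise, the duplicates differed (chi-square over degrees of freedom 14.1 for EV-RV, 13.1 for IRF4-RV) and were kept as separate samples.

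Genes passing filterByExpr were tested across the whole table in R 4.3.3 with edgeR 4.0.16 (TMM, quasi-likelihood F test, Benjamini-Hochberg, FDR of 0.1, the cutoff of the study). The members and the lists of genes were chosen with earlier results of these data known. Therefore, no p is given for the members, and lists are described by counts beside the share of all genes called. The adjusted p printed for genes of the lists come from the test over the whole table. They are no independent support, since the named genes were picked by their calls and changes in these data. Of the lists, the genes named are those called whose mean reached 50 normalized counts, with the largest change, at most 4 for each role, the T cell markers at or below 3 counts, and neighbours of tested members. Some genes of the lists enter the counts but are not reported here by name. Sequences were read from RefSeq windows and GENCODE transcripts, both on GRCm38.

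In 10 simulated sets of 14637 genes for IRF4-RV against EV-RV, 200 genes were changed 2-fold. edgeR found 74.6% of these, and 16.4% of what it called was false, above the FDR of 10%. In these sets the adjusted p-values were thus somewhat too small. Far fewer genes were changed there than the 29.7% called in the data, so the share of false calls in the data may differ. DESeq2 1.42.0 recovered 72.0% with 13.3% false, and a replicate block 76.6% with 24.9% false. The alternatives were DESeq2, its size factors in edgeR, library size only, no filter beyond 1 count, at least 10 counts in each library, the replicate block, an FDR of 0.05, leaving out each library in turn, and the longest transcript as length.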

Additional observations from a re-analysis of the deposited data

How the results depend on the processing

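Of 55 log2 fold changes of the 5 tested members under 11 alternatives, 51 kept direction and call. The other 4 concerned *Tcf7* and *Lck*. *Tcf7* changed sign with library size only (-0.0737) and ranged from -0.23 to 0.33 with each library left out, being negative without EV-RV replicate 2 (-0.23) and without IRF4-RV replicate 1 (-0.08). With the replicate number as a block *Lck* (0.13) passed the test, and 6394 genes were called in place of 4349, with 4 of the members, 20 of the other T-lineage genes and 15 of the Notch pathway. The labels give the groups the same replicate numbers only, the deviations of same-numbered libraries correlated with a Pearson r of 0.26 across genes, and the block gave a larger share of false calls in simulation. With each library left out, *Notch1* lay between 1.12 and 1.47, *Trac* between -0.74 and -0.67, *Zap70* between -0.55 and -0.47 and *Lck* between 0.09 and 0.16. With library size only the genes called were 1743 higher and 2867 lower in place of 2340 and 2009 (37.8% against 53.8% higher), and the members stayed at 1 higher and 2 lower. Per kb of the longest transcript the EV-RV levels of *Zap70*, *Lck* and *Notch1* moved to 12.5, 152.2 and 2.61 CPM per kb, the length being what differs. The cause of the *Tcf7* and *Lck* changes was not tested. *Tcrg-C4*, *Ubash3a*, *Tox*, *Aph1a*, *Maml1*, *Maml3* and *Heyl* lost their calls under some alternatives, as did *Cd2* and *Cd28*. Levels at or below 3 counts cannot be compared at this depth.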
